A study of Mus musculus with 6 samples.

Results

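The 10 genes described here are known as targets of the tumour suppressor p53 or as inhibitors of cell growth. They were followed in kidney endothelial cells (ECs) of mice labelled as controls or as deleted for the Notch effector Rbpj in ECs. These genes were taken by symbol, with earlier results of these data known, as Cdkn1a, Mdm2, Ccng1, Trp53inp1, Sesn1, Gadd45a, Gadd45b, Gadd45g, Btg1 and Btg2, and all 10 were found among the 55401 genes listed. All 10 were also among the 18438 genes that passed the filter on low counts and were tested. Btg2 rose in the libraries labelled RbpjΔEC, by 1.50-fold. Btg1, Gadd45a, Gadd45b and Mdm2 had higher levels in all 3 of these libraries than in any CTRL library without passing the adjusted test. Cdkn1a, the cell cycle inhibitor most used as a readout of p53, had overlapping levels in the groups.

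Both groups were male mice homozygous for the floxed Rbpj allele (Rbpjf/f), treated at 8 weeks of age with 5 doses of 1.5 mg tamoxifen and examined 12 weeks after induction, at a labelled age of 21 weeks. The 3 CTRL mice were Cre-negative littermates (Cre -/-). The 3 RbpjΔEC mice (Cre +/-) carried Cdh5CreERT2, a recombinase under the endothelial Cdh5 promoter that tamoxifen activates. By this design the floxed part of Rbpj is removed in ECs of all organs from induction on. ECs were isolated from digested kidneys with magnetic beads and then sorted as CD31+CD45- cells, and 1 bulk RNA library was made per mouse.

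The transcription factor p53 is stabilised after DNA damage and other stress and activates genes that stop the cell cycle, repair DNA or start cell death. Cdkn1a encodes p21, which blocks cyclin-dependent kinases, while Mdm2 encodes the ubiquitin ligase that removes p53 and so closes a feedback loop. The Gadd45 proteins and the BTG/TOB proteins also restrain proliferation, the latter by recruiting the deadenylase complex that shortens mRNA tails. Several of these genes, among them Btg2, Gadd45b and Cdkn1a, are also induced within minutes to hours by growth factors and cell stress without p53, as immediate-early genes are.

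The libraries held between 39649171 and 47726850 counts on genes, so that 3 counts, taken as the limit of detection, came to 0.0629 to 0.0757 CPM, the unit used throughout. CPM is the count as a share of the library's total, scaled to a common size, and all levels other than this limit use TMM-scaled totals. By a chi-square per degree of freedom of the counts of each pair of libraries, CTRL replicate 2 was nearer to RbpjΔEC replicates 3 (21.5) and 1 (26.7) than to CTRL replicates 1 (29.8) and 3 (33.0). RbpjΔEC replicate 3 was likewise nearer to CTRL replicate 2 than to RbpjΔEC replicates 1 (22.2) and 2 (31.1). Values without single libraries are given beside most of the results. At least 1 count was found on 33764 genes in CTRL replicate 1, and on 25629 to 26785 genes in each remaining library. Rbpj itself had 28.1, 29.7 and 29.8 CPM in the CTRL libraries and 28.9, 26.1 and 29.6 CPM in the RbpjΔEC libraries (adjusted p = 0.793, edgeR's quasi-likelihood test). A count over the whole gene includes exons outside the floxed part, so it does not check the labels. The Notch target Hey1 had 16.7, 19.9 and 22.6 CPM in CTRL and 11.5, 8.92 and 14.6 CPM in RbpjΔEC, lower in every RbpjΔEC library than in any CTRL library (adjusted p = 0.0722, edgeR). Endothelial markers were abundant, with a summed level of 21527 to 23669 CPM over 10 genes in CTRL and 19507 to 19826 CPM in RbpjΔEC. The summed levels of other cell types, CTRL first, were 246 to 292 and 188 to 224 CPM for 10 mural markers, 4.63 to 7.08 and 1.54 to 2.92 CPM for 6 stromal markers, 3184 to 3564 and 2591 to 2859 CPM for 5 podocyte markers, 296 to 425 and 131 to 471 CPM for 10 tubule markers, and 27.5 to 35.9 and 33.9 to 40.4 CPM for 10 macrophage markers. For the macrophage and tubule lists the sum and the median go apart: 6 of the 7 macrophage markers tested had log2 fold changes below 0 (median -1.25, with 1 called higher and 1 lower), and 6 of the 10 tubule markers had log2 fold changes above 0 (median 0.98, 0 called). T cell markers summed to 0.0710 to 0.349 and 0 to 0.0892 CPM (6 genes, with Cd3d and Cd3e at 0 in all 6 libraries). Endothelial, mural, stromal and podocyte sums were lower in all RbpjΔEC libraries. Gene by gene, the median log2 fold change was -0.18 for the endothelial list (0 of 10 called), -1.08 for the mural list (3 of 9 tested fell), -1.67 for the stromal list (1 of 3 tested fell) and -0.66 for the podocyte list (0 of 5 called), and the part of these lists in the results below was not tested. In bulk RNA, a change in the share of cells with a transcript and a change in the amount per cell cannot be told apart.

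To find which of the 10 genes differed between the genotypes, levels were compared with edgeR's quasi-likelihood test over all tested genes. Of the 10 genes, 1 rose (Btg2) and 0 fell at an adjusted p under 0.05 (Benjamini-Hochberg over 18438 genes), beside 0.575% of all tested genes that rose and 0.559% that fell (1.13% in either direction). At an unadjusted p under 0.05, 4 of the 10 were higher (Gadd45a, Gadd45b, Btg1 and Btg2) and 0 were lower, beside 8.88% and 8.62% of all tested genes. The 3 RbpjΔEC libraries lay above all 3 CTRL libraries for 5 of the 10 genes (Mdm2, Gadd45a, Gadd45b, Btg1 and Btg2) and below them for 1 (Ccng1), beside 11.4% and 11.6% of all tested genes (23% in either direction). The fitted log2 fold change was above 0 for 8 of the 10, beside 51.1% of all tested genes. Its median over the 10 was 0.19 (from 0.13 without RbpjΔEC replicate 3 to 0.28 without CTRL replicate 2), with a median of 0.01 over all tested genes. With 3 libraries against 3, an exact permutation test of a single gene cannot give a two-sided p below 0.1.

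**Figure D1:**
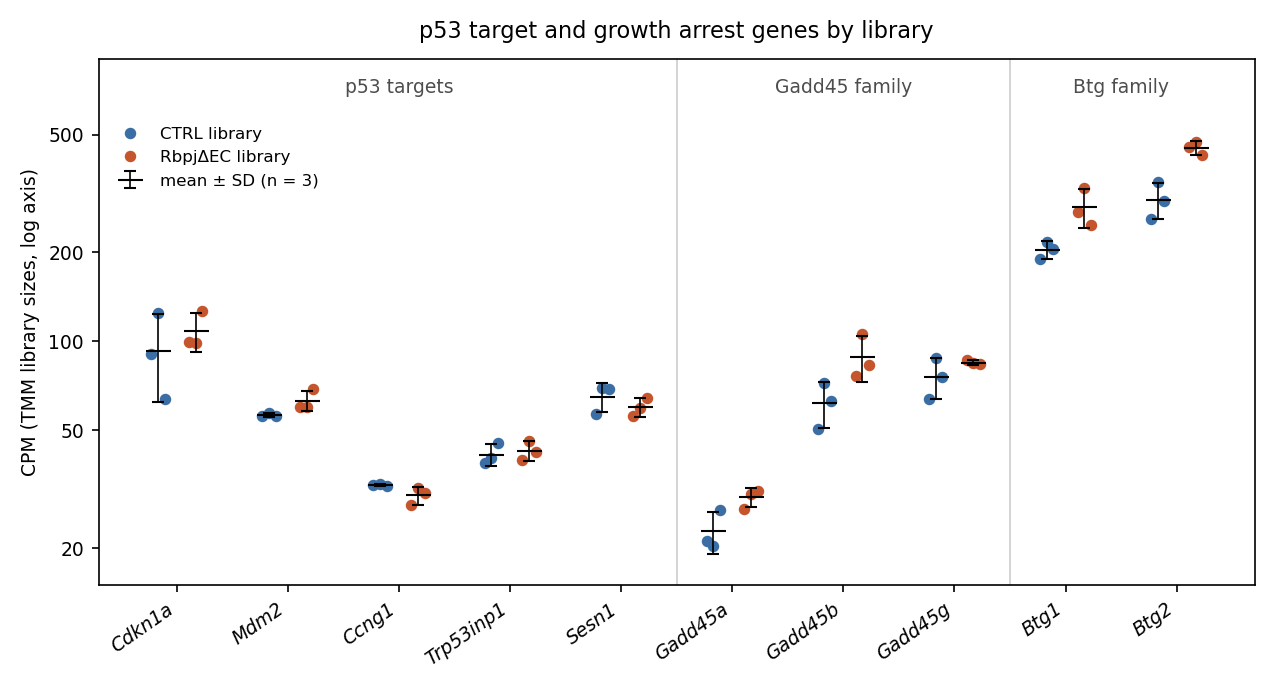
Level of each of the 10 genes in each library, in CPM scaled with TMM library sizes on a log axis, with CTRL points left and RbpjΔEC points right of each gene and bars for the mean ± SD (n = 3). The 3 RbpjΔEC points of Btg2 lie between 426.0 and 473.7 CPM, above the CTRL points at 260.1 to 345.0 CPM, while the points of Cdkn1a overlap.

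Of the 5 p53 targets at the left of the plot of levels by library, none passed the adjusted test. Cdkn1a had 90.9, 124.8 and 63.7 CPM in CTRL replicates 1, 2 and 3 and 99.9, 98.4 and 126.8 CPM in RbpjΔEC replicates 1, 2 and 3. The 3 CTRL libraries spread more widely than the RbpjΔEC libraries, and CTRL replicate 2 was above RbpjΔEC replicates 1 and 2. The means were 93.1 ± 30.6 and 108.4 ± 16.0 CPM (SD, n = 3), a fold of 1.16 with a 95% interval from 0.726 to 1.86 (adjusted p = 0.729, edgeR; exact permutation p = 0.4, two-sided). The interval of Cdkn1a was the widest of the 10 and included both a fall and a rise. Without CTRL replicate 3, the lowest library, the log2 fold change was 0.0045, and without CTRL replicate 2 it was 0.48, with adjusted p of 0.994 and 0.230 (edgeR). Cdkn1a lies at chr17:29090976-29100727 on the plus strand of GRCm38, where its exons share 273 bases with an annotated antisense gene, AC167363.2.

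The levels of Mdm2 were close in the groups but did not overlap, with 55.8, 57.3 and 56.0 CPM in CTRL and 60.1, 60.1 and 68.9 CPM in RbpjΔEC. The CTRL libraries were closer to each other than the counting error of a library, and all RbpjΔEC libraries were above them (56.4 ± 0.818 and 63.1 ± 5.07 CPM, SD, n = 3). The log2 fold change was 0.16 (SE 0.0772, adjusted p = 0.305, edgeR), with 0.093 without RbpjΔEC replicate 3 and 0.19 without RbpjΔEC replicate 2. Mdm2 lies at chr10:117688875-117710758 on the minus strand.

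Ccng1, which encodes cyclin G1, a p53-induced partner of a protein phosphatase, was the only one of the 10 genes with every RbpjΔEC library below the CTRL libraries. It had 32.6, 33.0 and 32.4 CPM in CTRL and 27.9, 32.0 and 30.6 CPM in RbpjΔEC. The CTRL libraries again lay within the counting error, and RbpjΔEC replicate 2 came close to them. Ccng1 (chr11:40748552-40755311, minus strand) had a log2 fold change of -0.12 (SE 0.0842, adjusted p = 0.505, edgeR), with -0.063 without RbpjΔEC replicate 1 and -0.16 without RbpjΔEC replicate 2.

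Sesn1 encodes sestrin 1, an inhibitor of growth signalling through mTORC1, and had 56.7, 69.3 and 68.9 CPM in CTRL and 55.8, 59.6 and 64.3 CPM in RbpjΔEC. The groups overlapped, with CTRL replicate 1 among the RbpjΔEC values. The log2 fold change was -0.12 (SE 0.0925, adjusted p = 0.546, edgeR), and from -0.21 to -0.068 with 1 library left out. Trp53inp1, a stress-induced cofactor of p53 with a role in autophagy, had 38.7, 40.3 and 45.2 CPM in CTRL and 39.6, 46.2 and 42.1 CPM in RbpjΔEC. These values interleaved, and the log2 fold change of 0.04 (SE 0.0899, adjusted p = 0.844, edgeR) changed sign when CTRL replicate 1 (-0.0081) or RbpjΔEC replicate 2 (-0.018) was left out. Sesn1 lies at chr10:41809935-41908424 and Trp53inp1 at chr4:11156431-11174379, both on the plus strand.

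The bases before the start site of Cdkn1a and Ccng1 are shown because both hold the sequence that p53 binds, although neither gene rose past the test. In RefSeq's transcripts on GRCm38.p6, 9 of the 10 genes (all but Trp53inp1) matched, with 11 windows of 250 bases before a start site, since Cdkn1a and Sesn1 have 2 windows each. Capitals mark a full p53 site, defined as 2 p53 half-sites side by side with at most 1 mismatch in all.
Cdkn1a, window 1, chr17:29090729-29090978, plus strand: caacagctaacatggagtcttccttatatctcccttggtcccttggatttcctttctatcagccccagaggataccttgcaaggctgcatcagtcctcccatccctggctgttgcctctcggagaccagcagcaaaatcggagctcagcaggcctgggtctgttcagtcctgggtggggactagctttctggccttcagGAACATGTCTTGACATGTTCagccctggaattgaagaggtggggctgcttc
Ccng1, chr11:40755287-40755536, minus strand: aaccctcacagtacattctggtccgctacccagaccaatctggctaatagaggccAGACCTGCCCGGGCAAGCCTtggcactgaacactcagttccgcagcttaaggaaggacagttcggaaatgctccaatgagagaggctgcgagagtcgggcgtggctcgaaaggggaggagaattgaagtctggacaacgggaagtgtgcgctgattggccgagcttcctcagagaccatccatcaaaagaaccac
A match of this kind was in 0.0761% of the 32851 windows of the same length in the table. In Cdkn1a it spans the bases 51 to 32 before the start site of window 1 (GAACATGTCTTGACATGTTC), and in Ccng1 the bases 195 to 176 (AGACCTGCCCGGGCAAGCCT). Window 2 of Cdkn1a, before a start site further downstream (chr17:29093519-29093768), held no p53 match. A single half-site without mismatch, on either strand, was in 7.13% of all windows and in those of Cdkn1a, Mdm2, Ccng1, Gadd45a and Sesn1. A pair of exact half-sites with 0 to 13 bases between them was in 0.0639% of windows and, of the 11, in the same Cdkn1a window, where it overlaps the marked site. These are matches of letters and not measurements of binding.

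The Gadd45 genes encode small acidic stress proteins that bind cyclin-dependent kinase complexes, PCNA and the kinase MEKK4. Gadd45b had 50.5, 72.3 and 62.9 CPM in CTRL and 76.3, 106.2 and 83.4 CPM in RbpjΔEC. All RbpjΔEC libraries were above the CTRL libraries, though RbpjΔEC replicate 1 and CTRL replicate 2 were close. The means were 61.9 ± 10.9 and 88.7 ± 15.6 CPM (SD, n = 3), a log2 fold change of 0.52 (SE 0.161, adjusted p = 0.162, edgeR). This did not pass the adjusted test, whereas DESeq2's Wald test called it (adjusted p = 0.0139) and so did edgeR without a low-count filter (adjusted p = 5.5e-07). These 2 fits called 944 of 18438 and 1436 of 38324 genes, beside 209 of 18438 in the main fit. With 1 library left out, the log2 fold change of Gadd45b was 0.37 to 0.64 and its adjusted p 0.091 to 0.365 (edgeR).

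Gadd45a, the member of the family classed as a p53 target, had 21.1, 20.3 and 27.0 CPM in CTRL and 27.2, 30.6 and 31.2 CPM in RbpjΔEC. The groups were apart by a narrow gap between CTRL replicate 3 and RbpjΔEC replicate 1. The means were 22.8 ± 3.65 and 29.7 ± 2.19 CPM (SD, n = 3), a log2 fold change of 0.38 (SE 0.116, adjusted p = 0.126, edgeR). Gadd45a passed without a low-count filter (adjusted p = 0.0115, edgeR). Its exons share 337 bases with the antisense gene E230016M11Rik, which had 67, 52 and 91 counts in CTRL and 116, 110 and 92 counts in RbpjΔEC. The library kit keeps the strand, but the strand setting of the counting is not given in the sources used here.

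Gadd45g, in contrast, had 64.0, 87.8 and 75.6 CPM in CTRL and 86.4, 84.3 and 83.8 CPM in RbpjΔEC. The RbpjΔEC values were close together and lay inside the CTRL range. The log2 fold change was 0.16 (SE 0.101, adjusted p = 0.437, edgeR; exact permutation p = 0.4, two-sided), with 0.051 without CTRL replicate 1 and 0.27 without CTRL replicate 2. Gadd45a lies at chr6:67035096-67037457 on the minus strand, Gadd45b at chr10:80930073-80932204 and Gadd45g at chr13:51846678-51848468 on the plus strand.

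Btg2, an antiproliferative gene induced by p53 and by growth factors, had 260.1, 345.0 and 297.8 CPM in CTRL and 453.3, 473.7 and 426.0 CPM in RbpjΔEC. All RbpjΔEC libraries lay above all CTRL libraries. The means were 301.0 ± 42.5 and 451.0 ± 23.9 CPM (SD, n = 3), a fold of 1.50 with a 95% interval from 1.29 to 1.74 (log2 fold change 0.58, SE 0.0972, adjusted p = 0.0212, edgeR). By p it ranked 67 of the 18438 tested genes. Btg1, its paralogue, had 189.5, 217.3 and 206.0 CPM in CTRL and 273.5, 330.6 and 247.3 CPM in RbpjΔEC. The groups did not overlap, and RbpjΔEC replicate 3 was the closest to CTRL. The means were 204.3 ± 14.0 and 283.8 ± 42.6 CPM (SD, n = 3), a fold of 1.39 with a 95% interval from 1.19 to 1.62 (log2 fold change 0.47, SE 0.102), and the adjusted p of 0.0550 (edgeR) was just above the threshold. Btg1 passed with upper quartile factors (adjusted p = 0.0446), with library size alone (0.0388), with a filter of at least 1 CPM in 3 libraries (0.0497), without a low-count filter (1.4e-07) and with DESeq2 (0.00173), and did not pass with DESeq2's size factors in edgeR (0.0573), limma voom (0.0587) or edgeR without robust estimation (0.0662). Btg2 passed in all of these settings, with adjusted p between 6.2e-12 and 0.0323.

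**Figure D2:**
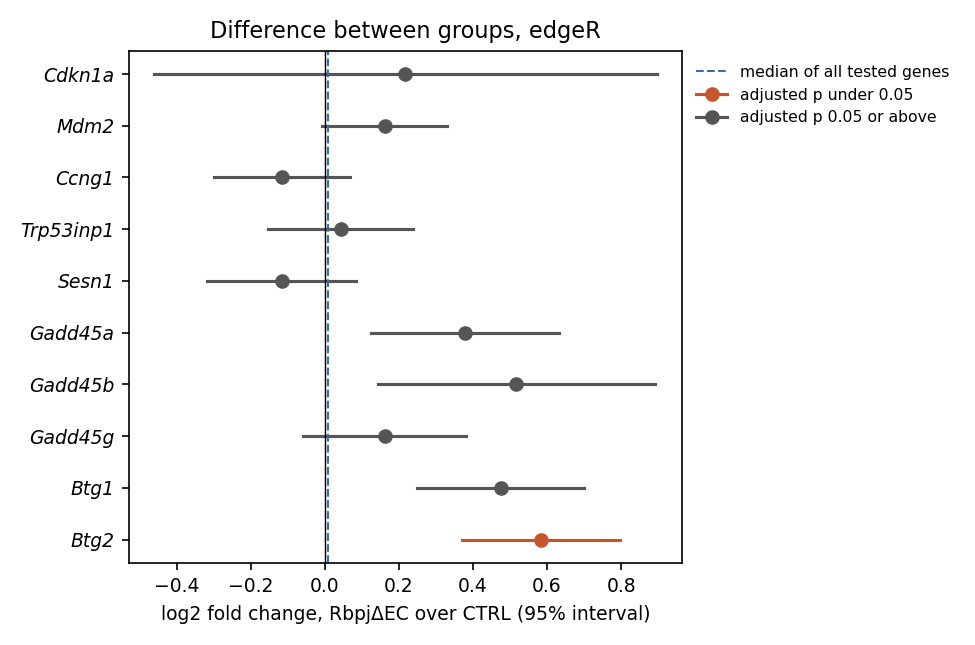
Log2 fold change of the RbpjΔEC over the CTRL libraries for each of the 10 genes, from edgeR, with its 95% interval, the value 0 as a solid line and the median of all tested genes as a dashed line. The interval of Btg2 (orange), the gene called, and those of Gadd45a, Gadd45b and Btg1 lie above 0, and that of Cdkn1a is the widest.

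The plot of fold changes sets these intervals side by side: Btg2, Btg1, Gadd45b and Gadd45a lie to the right of 0, and the intervals of the other 6 genes include 0. These intervals are for single genes and are not adjusted for the number of genes tested. Fits with 1 library left out compare 3 libraries with 2, and the call of Btg2 held in only some of them. Leaving out CTRL replicate 1, CTRL replicate 3, RbpjΔEC replicate 1 or RbpjΔEC replicate 2 put the adjusted p of Btg2 at 0.0588, 0.116, 0.101 and 0.0823 (edgeR), with log2 fold changes of 0.49, 0.57, 0.58 and 0.55. Leaving out CTRL replicate 2 or RbpjΔEC replicate 3 put it at 0.00419 and 0.0115. Btg1 passed in this way only without RbpjΔEC replicate 3 (adjusted p = 0.00863, edgeR) and otherwise had adjusted p between 0.0534 and 0.198.

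**Figure D3:**
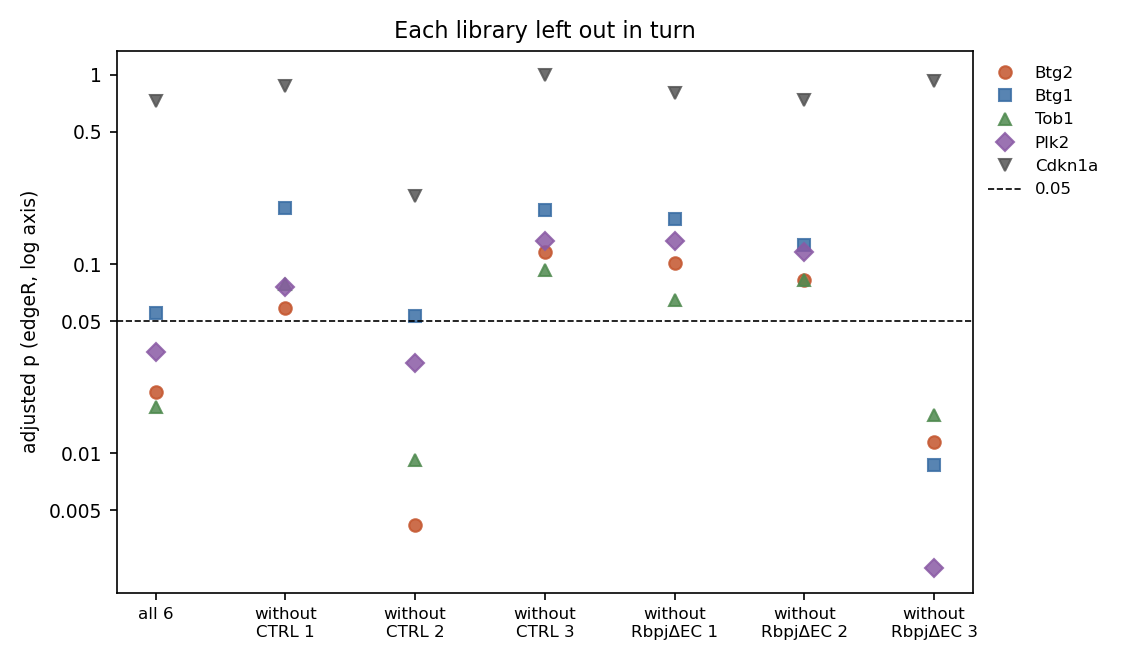
Adjusted p from edgeR (log axis) of Btg2, Btg1, Tob1, Plk2 and Cdkn1a with all 6 libraries and with each library left out in turn, with a dashed line at 0.05. Btg2 lies under the line without CTRL 2 (0.00419) or RbpjΔEC 3 (0.0115) and above it in the other 4, and Cdkn1a is above it throughout.

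The plot of adjusted p by omitted library shows that omitting CTRL replicate 1, CTRL replicate 3, RbpjΔEC replicate 1 or RbpjΔEC replicate 2 put the adjusted p of Btg2, Tob1 and Plk2 above 0.05. Among all tested genes, 209 were called with all 6 libraries, 24 without CTRL replicate 3, 21 without RbpjΔEC replicate 1, 48 without RbpjΔEC replicate 2, 54 without CTRL replicate 1, 521 without RbpjΔEC replicate 3 and 700 without CTRL replicate 2. The log2 fold change of Btg2 stayed between 0.49 and 0.69.

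The start regions of Btg2 and Btg1 are shown because these were the genes with the smallest p of the 10, and they hold the cyclic AMP response element or its core TGACG in capitals (on either strand, so also as CGTCA).
Btg2, chr1:134079156-134079405, minus strand: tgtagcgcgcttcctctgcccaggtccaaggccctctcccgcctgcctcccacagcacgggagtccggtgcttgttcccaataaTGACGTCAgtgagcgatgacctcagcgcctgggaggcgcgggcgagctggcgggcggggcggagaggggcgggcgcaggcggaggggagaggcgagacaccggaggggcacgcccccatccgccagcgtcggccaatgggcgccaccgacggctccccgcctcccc
Btg1, chr10:96616751-96617000, plus strand: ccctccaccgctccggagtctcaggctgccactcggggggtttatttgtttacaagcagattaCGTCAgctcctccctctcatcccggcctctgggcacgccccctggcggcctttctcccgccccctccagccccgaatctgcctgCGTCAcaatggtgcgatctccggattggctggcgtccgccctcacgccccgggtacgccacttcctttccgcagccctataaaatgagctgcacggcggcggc
The full palindrome TGACGTCA was in 1.55% of all 32851 windows and, of the 11, in that of Btg2, at the bases 166 to 159 before the start site. It contains TGACG on both strands. TGACG alone was in 17.8% of all windows and in those of Btg1 (2 matches, at 187 to 183 and at 103 to 99), Btg2 and Sesn1. None of the 11 windows held the AP-1 motif TGANTCA (6.75% of all windows) or a CArG box, the site of serum response factor (1.47%). CACGTG was in those of Gadd45b and Gadd45g (6.02% of all), and TGGGAA, the core of the Rbpj site, in those of Btg2, Cdkn1a and Sesn1 (21.6% of all). Btg2 itself lies at chr1:134075170-134079120 on the minus strand and Btg1 at chr10:96617006-96622809 on the plus strand.

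Per kb of exon, Btg2 was the most abundant of the 10 transcripts in both groups, with 109.7 ± 15.5 CPM per kb in CTRL and 164.4 ± 8.71 in RbpjΔEC (SD, n = 3). Gadd45g followed with 64.6 CPM per kb in CTRL and 72.3 in RbpjΔEC. Then came Gadd45b (39.0 and 55.8 CPM per kb) and Btg1 (38.7 and 53.8), which overlapped each other in both groups. Cdkn1a came next with 26.2 and 30.5 CPM per kb. Below it were Sesn1 (16.3 and 15.0) and Gadd45a (12.9 and 16.8), which also overlapped each other in both groups and exchanged places between them, and then Mdm2 (11.1 and 12.4), Ccng1 (9.31 and 8.59) and Trp53inp1 (6.40 and 6.59). All other neighbours in this order did not overlap within a group.

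Within single libraries, the 10 genes were set against their own CTRL means on the log2 CPM scale. The median difference was -0.10, 0.10 and 0.01 in the CTRL libraries and 0.18, 0.16 and 0.28 in the RbpjΔEC libraries. In CTRL replicate 1, only 1 of the 10 genes was above its CTRL mean, against 8 and 6 in CTRL replicates 2 and 3 and 7, 8 and 8 in the RbpjΔEC libraries. The genes did not all vary together. Of the 45 pairs, 31 had a positive Pearson correlation of log2 CPM over the 6 libraries (median r = 0.38, from -0.61 to 0.93), and the 3 pairs above 0.9 were those among Btg1, Btg2 and Gadd45b. All these correlations share the same 6 libraries, in which the genotypes differ. Over 10441 genes with a mean of at least 5 CPM, those most like Btg2 by the same measure were Foxred1 (r = 0.998), Atp6v0c (0.996) and Wsb1 (0.996), and those most like Cdkn1a were Zfp800 (0.996), Ipo13 (0.994) and Krit1 (0.991). Those most like Btg1, looked up after its values were seen, were Ier5l (r = 0.995), Jun (0.995) and Junb (0.991). Those most like Gadd45b, looked up in the same way, were Iba57 (r = 0.994), Slc1a5 (0.994) and Hspa2 (0.988). Each is among the highest of 10441 correlations over 6 libraries, and the top match of every one of the 10 genes had r of at least 0.985. Such values therefore mark no particular likeness.

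To place the 10 genes in their pathway, p53 and its regulators were examined. Of 20 such genes, 17 were tested and 0 were called (edgeR, adjusted p under 0.05), with 0 called by DESeq2 and 2 higher and 0 lower before adjustment (p under 0.05). For this list and those that follow, the shares over all tested genes are 0.575% called higher and 0.559% called lower, and 8.88% higher and 8.62% lower before adjustment. Their median log2 fold change was 0.09. Trp53, which encodes p53, had 37.0, 29.5 and 32.5 CPM in CTRL and 40.6, 40.4 and 33.8 CPM in RbpjΔEC, with overlap (log2 fold change 0.21, adjusted p = 0.318, edgeR). Its log2 fold change was 0.13 without CTRL replicate 2 and 0.30 without CTRL replicate 1. Usp7, the deubiquitinase of Mdm2 and p53, had a log2 fold change of 0.20 (adjusted p = 0.179) and Mdm4, the Mdm2 partner that inhibits p53, one of 0.27 (adjusted p = 0.244), or 0.16 without CTRL replicate 1. Mdm4 was called without CTRL replicate 2 (log2 fold change 0.40, adjusted p = 0.0371) and without a low-count filter (adjusted p = 0.0203). Trp63, Trp73 and Cdkn2a were under the filter.

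Of 37 other p53 targets, 36 were tested, 1 rose and 0 fell, with 7 higher and 1 lower before adjustment, 21 positive and 15 negative log2 fold changes. Their median of 0.06 turned to -0.0050 without RbpjΔEC replicate 2 and was 0.09 without RbpjΔEC replicate 3. The gene that rose was Plk2, a polo-like kinase that is both a p53 target and an early response gene. It had 423.4, 552.3 and 521.0 CPM in CTRL and 897.2, 877.7 and 686.5 CPM in RbpjΔEC, without overlap (log2 fold change 0.72, SE 0.124, adjusted p = 0.0344, edgeR). Plk3, a related kinase, had a log2 fold change of 0.76 (adjusted p = 0.0619) and passed with limma voom (0.036), edgeR without robust estimation (0.0442), DESeq2 (2.3e-05), no low-count filter (6.5e-15), and without CTRL replicate 1 (0.0443) or 2 (0.0049). The death receptor Tnfrsf10b had a log2 fold change of 0.30 (adjusted p = 0.102, edgeR) and passed without a low-count filter (0.0407). The call of Plk2 was lost without CTRL replicate 1, CTRL replicate 3, RbpjΔEC replicate 1 or RbpjΔEC replicate 2, with adjusted p of 0.0756, 0.132, 0.133 and 0.116 (edgeR) and log2 fold changes of 0.61, 0.75, 0.65 and 0.67.

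Of 25 other growth arrest genes, 24 were tested, 1 rose and 0 fell, with 4 higher and 1 lower before adjustment and a median log2 fold change of 0.06. The gene that rose was Tob1, which belongs to the same protein family as Btg1 and Btg2. It had 63.4, 73.7 and 68.0 CPM in CTRL and 89.9, 102.5 and 96.7 CPM in RbpjΔEC, without overlap (log2 fold change 0.49, SE 0.0799, adjusted p = 0.0175, edgeR). Without the same 4 libraries as for Plk2, taken in the same order, its adjusted p was 0.078, 0.0929, 0.0645 and 0.082 and its log2 fold change 0.44, 0.49, 0.54 and 0.45. Tob2 had a log2 fold change of 0.35 (adjusted p = 0.0622, edgeR). It passed with library size alone (0.0394), DESeq2 (0.0102), no low-count filter (5.6e-04), and without CTRL replicate 2 (0.0415). Gas2l1, a cytoskeletal linker of the GAS2 family, had a log2 fold change of 0.25 (adjusted p = 0.102, edgeR) and passed without a low-count filter (0.0468). As a family, a choice made after these values were seen, Btg1, Btg2, Btg3, Tob1 and Tob2 were each higher in all 3 RbpjΔEC libraries than in any CTRL library, as were 11.4% of all tested genes. Btg3 had a log2 fold change of 0.24 (adjusted p = 0.496), and Btg4 was under the filter.

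Of 20 proliferation genes, 17 were tested, 1 rose and 0 fell, beside 0.575% and 0.559% of all tested genes. Before adjustment 2 were higher and 2 lower, beside 8.88% and 8.62% of all tested genes. The median log2 fold change of the 17 was 0.38. With 1 library left out it ranged from 0.16 without CTRL replicate 3 to 0.51 without CTRL replicate 1. It was 0.11 over the 12 genes left by a filter of at least 1 CPM in 3 libraries, and 0.47 without a low-count filter. Pcna, the sliding clamp of DNA replication and a binding partner of p21 and Gadd45, had 44.3, 59.8 and 45.4 CPM in CTRL and 72.6, 78.8 and 73.8 CPM in RbpjΔEC (log2 fold change 0.59, SE 0.109, adjusted p = 0.0362, edgeR). The same 4 omissions put its adjusted p at 0.11, 0.147, 0.122 and 0.116 and its log2 fold change at 0.51, 0.53, 0.61 and 0.56. Ccna2, the cyclin of S phase, was near 1 CPM (0.580 ± 0.121 and 1.46 ± 0.468, SD, n = 3), with a log2 fold change of 1.33 (adjusted p = 0.10, edgeR). It passed with DESeq2 (adjusted p = 0.0425) and with edgeR without a low-count filter (0.034). Ccnd1, the cyclin of early G1, had a log2 fold change of -0.29 (adjusted p = 0.212, edgeR), or -0.16 without CTRL replicate 1 and -0.38 without CTRL replicate 3. Ccnd1 passed only without a low-count filter (adjusted p = 0.0177, edgeR).

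Since Btg2, Gadd45b and Cdkn1a also respond early to stimulation, the immediate-early genes were set beside them. Of 22 such genes, 21 were tested, 7 rose and 0 fell, 18 were higher at an unadjusted p under 0.05, and 16 were higher without overlap between the groups, beside 0.575%, 8.88% and 11.4% of all tested genes. Their median log2 fold change was 0.46. The 6 with the smallest p were Egr1 (log2 fold change 0.66, adjusted p = 0.0065), Ppp1r15a (0.46, 0.0324), Egr3 (1.00, 0.0326), Atf3 (0.55, 0.0387), Fos (0.46, 0.0398) and Junb (0.51, 0.043), all from edgeR. Fos, for example, had 448.6, 505.7 and 443.2 CPM in CTRL and 686.6, 675.8 and 560.4 CPM in RbpjΔEC. Without CTRL replicate 3 none of the list was called, and without CTRL replicate 1, RbpjΔEC replicate 1 or RbpjΔEC replicate 2 only 1 was called, with list medians of 0.48, 0.39, 0.45 and 0.42 in these 4 fits. Kidneys of both groups were digested before sorting, and the part of the immediate-early genes in the values of Btg2, Btg1 and Gadd45b was not tested.

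**Figure D4:**
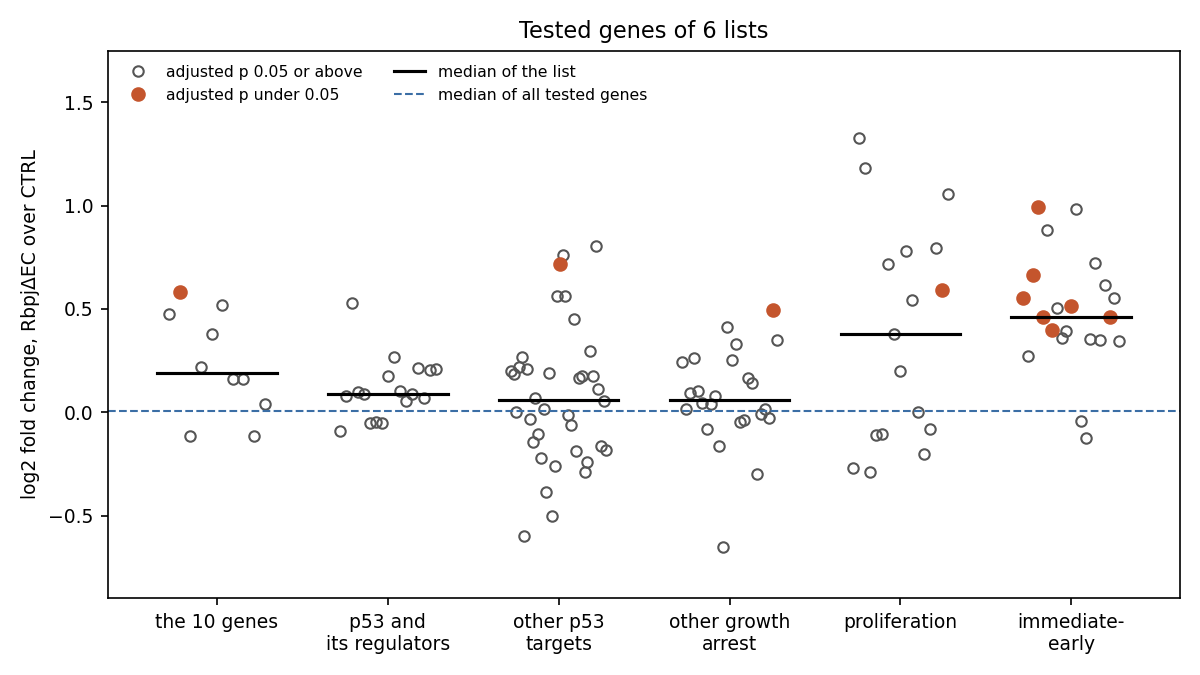
Log2 fold change, RbpjΔEC over CTRL, of every tested gene of the 10 genes and of 5 other lists, with filled points for an adjusted p under 0.05 (edgeR), a bar for the median of each list and a dashed line for the median of all tested genes. The median is 0.46 for the immediate-early genes, 0.19 for the 10 genes, and 0.06 for the other p53 targets and for the other growth arrest genes.

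The plot of fold changes by list shows the 10 genes, with log2 fold changes from -0.12 to 0.58, inside the range of the other p53 targets (-0.60 to 0.80) and of the immediate-early genes (-0.13 to 1.00). No test compared the lists, and their genes share the same 6 libraries.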

How the data were processed

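RNA of sorted kidney ECs from 3 CTRL and 3 RbpjΔEC mice was used, with groups from the sample labels. The authors trimmed reads (Trim Galore 0.6.4), aligned them to GRCm38.p6 (STAR 2.6.1d) and counted them per gene (featureCounts, Subread 1.6.4) within nf-core/rnaseq 1.4.2, and deposited raw counts as whole numbers. Total counts were 39649171 to 47726850. The 10 genes had 846 to 20324 counts per library, a counting error of 0.701% to 3.44% of the count, which covers counting only.

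The counts were compared in edgeR 4.0.16 under R 4.3.3 (TMM factors, filterByExpr with a minimum count of 10, estimateDisp, robust glmQLFit, glmQLFTest), with Benjamini-Hochberg adjustment over 18438 genes and a threshold of 0.05. Each standard error was the log2 fold change divided by the square root of F. Log2 CPM used a prior count of 2. Alternatives used DESeq2 1.42.0, limma 3.58.1 voom, other scalings and filters, the replicate number as a block, and each library left out. On simulated counts for this comparison over 18035 genes, 43 of 100 genes changed by a log2 fold change of 0.5 and 91 of 100 changed by 1 were recovered, with 7 of 17835 others called. The changed genes were drawn only from those with a mean of at least 100 counts, and no outlying library was simulated.

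Gene positions and exonic lengths came from GENCODE M21 on GRCm38, which matched 55141 of 55401 genes, and start regions from RefSeq on GRCm38.p6.

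The members and lists were chosen with earlier results of these data known. Named genes were all 10 members, in each other list the called genes (at most 6 by p, or the 3 smallest p where fewer than 3 passed), and for Btg2 and Cdkn1a the 3 genes most correlated. Genes outside this rule are Rbpj, the gene targeted for deletion, its target Hey1 and those marked in the text. The result for 1 list of cell type markers is not reported here.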

Additional observations from a re-analysis of the deposited data

How the results depend on the processing

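Of the 10 genes, 1 was called, and 2 were called with upper quartile factors, with library size alone or with a filter of at least 1 CPM in 3 libraries, 3 with DESeq2 and 4 without a low-count filter. Over all tested genes, 209 of 18438 were called, which became 944 of 18438 with DESeq2 and 1436 of 38324 without a low-count filter. Library size alone called 241, of which 159 were higher and 82 lower, against 106 and 103. In the other lists, the filter-free fit called 1 regulator of p53, 5 other p53 targets, 4 other growth arrest genes, 4 proliferation genes and 15 immediate-early genes. DESeq2 called 2, 2, 2 and 14 in the last 4 of these lists, limma voom and edgeR without robust estimation 2 other p53 targets, and library size alone 2 other growth arrest genes. The cause of these differences was not tested.

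With 1 library left out at a time, the calls ranged from 21 to 700 over all tested genes, 0 to 2 of the 10 genes, 0 to 1 for the regulators of p53, 0 to 2 for the other p53 targets, 0 to 2 for the other growth arrest genes, 0 to 1 for the proliferation genes and 0 to 13 for the immediate-early genes. The count of the 10 genes was 0 without CTRL replicate 1, CTRL replicate 3, RbpjΔEC replicate 1 or RbpjΔEC replicate 2. The log2 fold change of Trp53inp1 turned to -0.0081 without CTRL replicate 1 and to -0.018 without RbpjΔEC replicate 2, and reached 0.11 without CTRL replicate 3. Over 28 named genes and 420 values under alternatives, 349 kept direction and call, 40 lost and 29 gained the call, and 2 changed sign.

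The replicate numbers were shared by both groups, but the deviations of same-numbered libraries correlated at only 0.0231, 0.00916 and 0.00544, so the numbers were not taken to pair the mice. With the replicate number as a block, 344 genes were called in all, with 3 of the 10 genes (Btg2, Btg1 with adjusted p = 0.0182 and Gadd45b with adjusted p = 0.00853, edgeR), 2 other growth arrest genes and 12 immediate-early genes. The counts of the other lists did not move.

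Each of the 10 genes had at least 846 counts per library. The spread between CTRL libraries was above the counting error for 8 of them and below it for Mdm2 and Ccng1.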
